A study of Mus musculus with 8 samples.

Results

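The 10 genes examined here serve elastic fibre assembly, and their RNA was measured in Cebpg-/- and WT mouse embryonic fibroblasts. They are Eln, Fbn1, Fbn2, Fbln1, Fbln2, Fbln5, Lox, Loxl1, Emilin1 and Ltbp1. Every probe set that the platform annotation assigns to one of them alone was taken, which gave 21 of 45037 probe sets and 9 of 18193 genes. No probe set carries the name Fbn1 in the annotation used here, so that gene was not analysed here. The other 9 genes have 2 or 3 probe sets each.

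Elastic fibres consist of a core of crosslinked elastin laid down on a scaffold of microfibrils, which are built from fibrillins. Fibulins and emilins link the core to the scaffold and to the cell, latent TGF-beta binding proteins anchor the growth factor on microfibrils, and lysyl oxidases oxidise lysine side chains so that elastin and collagen chains become joined. Embryonic fibroblasts secrete most of these proteins, and elastin itself is made mainly late in development and in early life.

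By their label, the Cebpg-/- fibroblasts have no working copy of the gene for the leucine zipper transcription factor C/EBPγ. They were set against WT fibroblasts with both copies. Both genotypes were C57BL/6, came from embryos at E13.5, grew in DMEM with 10% serum without other treatment, and were collected 48 hours after plating at passage 3. Each genotype has 4 samples named biological replicates, and 1 array was hybridised per sample. The labels do not say how the allele was made or if each replicate has its own embryos, and so the p-values cover only the spread between these samples.

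Each value is a deposited RMA summary in log2 units, where a difference of 1 is a 2-fold difference. A probe set was called when its limma p-value, adjusted by Benjamini-Hochberg over all 45037 probe sets, was under 0.05; where 1 value per gene is used, the brightest probe set stands for the gene and the adjustment runs over 18193 genes. Levels of different probe sets cannot be set against each other on this platform, so no order of abundance among the genes is given. The array medians lay between 2.70 and 2.76, and the number of arrays limits the precision. Of 3 Cebpg probe sets, 1451639_at fell to 5.53 ± 0.12 in Cebpg-/- cells, against 6.32 ± 0.07 in WT cells (SD, n = 4 each, limma adjusted p = 0.000593). The others did not pass the threshold. The brightest, 1425262_at, had a log2 change of -0.17 with overlapping groups. For 1425261_at it was 0.26, with all Cebpg-/- values above all WT values. The position of these probe sets relative to the altered part of the gene is not stated in the sources used. The mean of 9 fibroblast markers was 9.20 ± 0.16 in Cebpg-/- cells and 9.49 ± 0.17 in WT cells (SD, n = 4 each), and 4 of the 9 fell (Col1a1, Col1a2, Col3a1 and Pdgfrb), where 3.99% of all genes were called lower. The other 5 were not called, with log2 changes of 1.07 for Lum, 0.02 for Vim, -0.01 for Dcn, -0.15 for Pdgfra and -0.47 for Thy1. In whole cultures, fewer cells of a type and less RNA per cell cannot be told apart.

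The genes split into a group that fell and a group that did not pass the threshold. Eln, Fbn2, Fbln5, Loxl1 and Emilin1 were lower in Cebpg-/- cells, by between 1.42-fold and 2.83-fold at their brightest probe sets, while Fbln1, Fbln2, Lox and Ltbp1 did not pass. Counted by probe set, 9 of 21 were lower and 0 higher, where 2.78% of all probe sets on the array were called lower and 4.82% higher, or 7.60% in either direction. None of the other 12 passed; their unadjusted limma p-values were under 0.05 for 2 of them, both of Ltbp1. Counted by gene, 5 of 9 were lower and 0 higher, where 3.99% of all genes were called lower and 8.62% higher. The median log2 change, Cebpg-/- minus WT, was -0.51 over the 9 genes and -0.00092 over all genes. In 8 of the 21 probe sets all 4 Cebpg-/- values lay below all 4 WT values, a separation seen in 6.31% of all probe sets; the opposite one was seen in 0 of the 21 and in 8.71% of all. The 5 genes passed in every fit that left out 1 array. The mean of 18 leukocyte markers was 6.41 ± 1.16 in Cebpg-/- cells and 4.90 ± 0.89 in WT cells (SD, n = 4 each); with it as a covariate 1 of the 5 genes passed (Eln), and without both replicates 1, the samples at its extremes, 3 passed (Eln, Fbn2 and Fbln5).

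**Figure D1:**
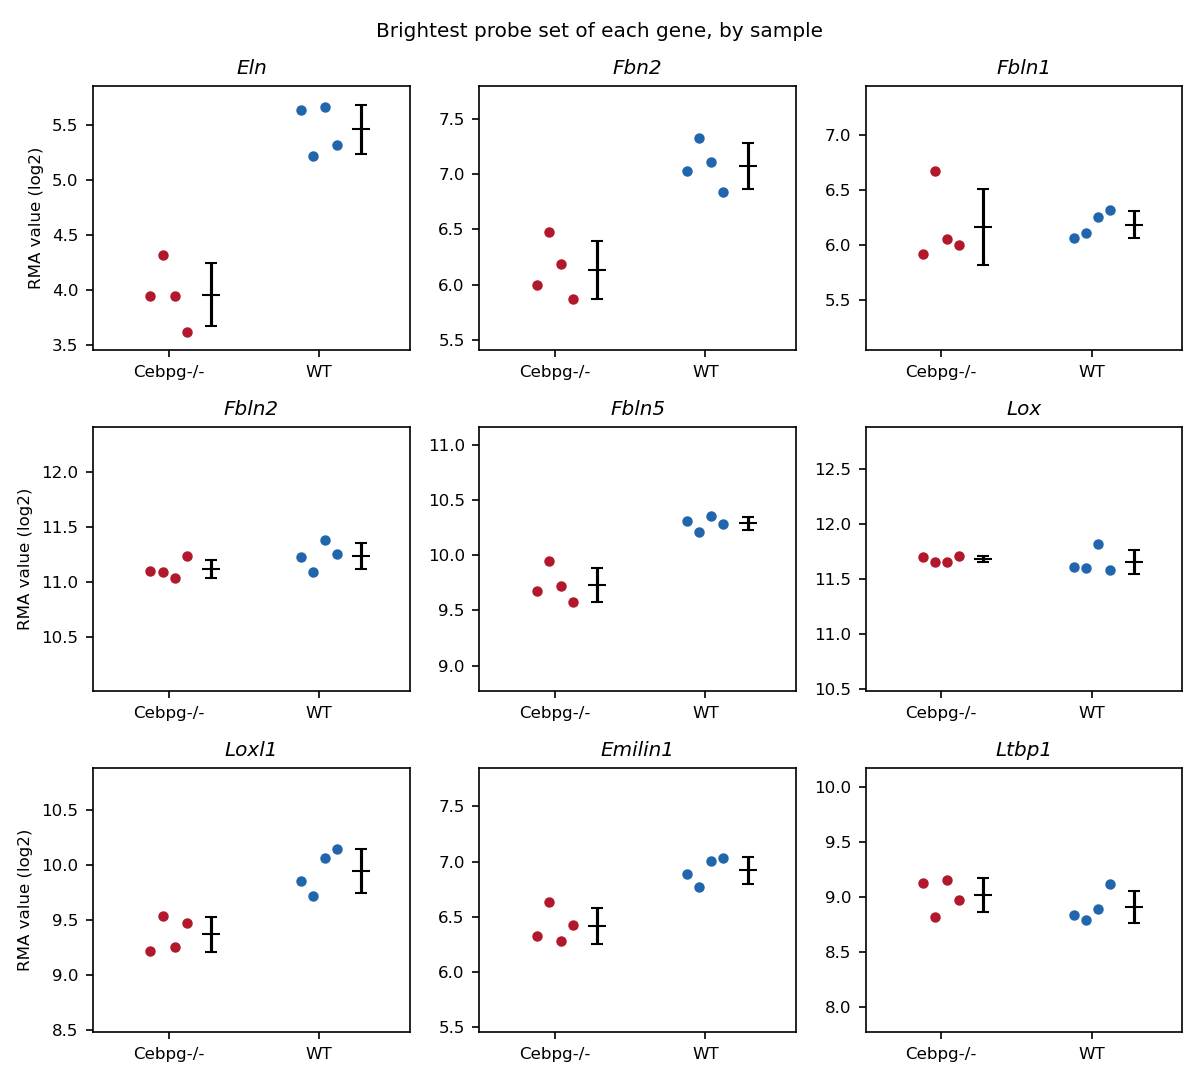
RMA values (log2) of the brightest probe set of each of the 9 measured genes in the 4 Cebpg-/- (red) and 4 WT (blue) samples, with the mean and SD of each genotype as black bars; every panel spans 2.4 log2 units. The Cebpg-/- points of Eln, Fbn2, Fbln5, Loxl1 and Emilin1 all lie below the WT points, and those of the other 4 genes overlap them.

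Elastin (Eln), the protein of the elastic core, had the largest change of the 9 genes at the brightest probe set, but not when all probe sets of each gene were averaged, where Eln changed by -0.94 and Fbn2 by -1.09. Its probe set 1420855_at read 3.95, 4.32, 3.95 and 3.62 in Cebpg-/- replicates 1 to 4, against 5.63, 5.22, 5.66 and 5.32 in WT replicates 1 to 4. The lowest WT sample was thus well above the highest Cebpg-/- sample. The log2 change was -1.50 (95% interval -1.83 to -1.17; limma adjusted p = 0.000745), which leaves 35.4% of the WT level. The other probe set of Eln, 1420854_at, read 2.83, 2.90, 2.95 and 2.79 in Cebpg-/- samples and 3.32, 3.12, 3.38 and 3.18 in WT samples. Its values also separated the genotypes, with a smaller change of -0.38 (limma adjusted p = 0.0134). The annotation gives both probe sets of Eln the same source sequence. The change of 1420855_at was 1.12 log2 units deeper than that of 1420854_at, with an exact two-sided permutation p of 0.0286, the smallest that 4 against 4 samples allow. After adjustment over the 15 pairs of probe sets of one gene this p was 0.143, and no pair passed. Unless most pairs reach the smallest p, none can pass, so the adjusted value does not decide if these probe sets differ. Eln lies on chromosome 5 at 134702595 to 134747368 in GRCm38.p6, the build of the RefSeq gene table.

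Fibrillin 2 (Fbn2), the fibrillin that predominates in embryonic microfibrils, fell at both of its probe sets. Probe set 1454830_at read 6.00, 6.47, 6.19 and 5.87 in Cebpg-/- samples, against 7.03, 7.33, 7.11 and 6.84 in WT samples. Probe set 1422831_at read 4.94, 5.59, 5.34 and 4.94 in Cebpg-/- samples, against 6.41, 6.58, 6.45 and 6.35 in WT samples. In both, each Cebpg-/- sample lay below each WT sample. The log2 changes were -0.94 (95% interval -1.25 to -0.64; limma adjusted p = 0.0043) and -1.25 (-1.56 to -0.94; 0.00121), or 52.0% and 42.1% of the WT level. The gene lies on chromosome 18.

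Among the fibulins, which bind elastin and basement membranes, only Fbln5 was called. Fibulin 5 binds elastin and integrins and is needed for elastic fibre assembly in mice. Its probe set 1416164_at read 9.68, 9.94, 9.72 and 9.57 in Cebpg-/- samples, against 10.31, 10.21, 10.36 and 10.28 in WT samples, and the groups did not overlap. The log2 change was -0.56 (95% interval -0.74 to -0.38; limma adjusted p = 0.00413), or 67.8% of the WT level. The second Fbln5 probe set, 1446377_at, has a mean under the median of all probe sets and read 2.00 to 2.32 in Cebpg-/- samples and 2.31 to 2.83 in WT samples. Those ranges overlap, and its call (log2 change -0.47, limma adjusted p = 0.0332) was lost without any one of Cebpg-/- replicates 1, 2 or 3 or WT replicates 1, 2 or 3, with adjusted p from 0.0617 to 0.095.

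Fibulin 1 and fibulin 2 gave no call at any of their 5 probe sets. Fbln1, found in elastic fibres and basement membranes, read 5.91, 6.67, 6.06 and 6.00 at 1451119_a_at in Cebpg-/- samples, against 6.06, 6.11, 6.25 and 6.32 in WT samples. Cebpg-/- replicate 2 stood above every WT sample and the other 3 lay at or below the lowest of them. The log2 change was -0.02 with a 95% interval of -0.36 to 0.31 (limma adjusted p = 0.944). The other Fbln1 probe sets changed by -0.04 and -0.01. Fbln2 read 11.10, 11.09, 11.04 and 11.23 at 1423407_a_at in Cebpg-/- samples, against 11.22, 11.09, 11.38 and 11.25 in WT samples. The ranges overlap, and the log2 change of -0.12 had an interval of -0.28 to 0.04 (limma adjusted p = 0.36), so a fall as deep as that of Fbln5 lies outside it. The dimmer Fbln2 probe set, 1438375_at, changed by -0.05 (-0.36 to 0.27).

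The promoter sequences of Fbln5 and Emilin1 are shown as those of genes that fell, and come from the RefSeq table (GRCm38.p6). The search took in 9 windows, which belong to 6 of the 10 genes. No window of Eln, Fbn2, Lox or Loxl1 was searched, so motifs before the starts of these genes were not examined. This does not mean that RefSeq holds no promoter for them. Each window holds the 250 bases before an annotated start, 5′ to 3′ on the gene's strand. The search on both strands covered 4 motifs, namely the C/EBP-ATF composite element TGATGNAA, bound by pairs of C/EBP and ATF4 proteins, the C/EBP element TTGCNNAA, the SMAD element CAGACA and the TATA box TATAAA. Matches are in capitals.
Fbln5 start inside the gene, chr12:101818485-101818734, minus strand: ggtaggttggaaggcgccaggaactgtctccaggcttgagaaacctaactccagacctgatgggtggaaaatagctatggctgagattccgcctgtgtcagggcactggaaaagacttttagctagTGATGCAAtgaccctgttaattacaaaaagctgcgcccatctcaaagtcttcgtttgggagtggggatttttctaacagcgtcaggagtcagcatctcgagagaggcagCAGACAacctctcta
Fbln5 start at the gene's 5′ end, chr12:101819120-101819369, minus strand: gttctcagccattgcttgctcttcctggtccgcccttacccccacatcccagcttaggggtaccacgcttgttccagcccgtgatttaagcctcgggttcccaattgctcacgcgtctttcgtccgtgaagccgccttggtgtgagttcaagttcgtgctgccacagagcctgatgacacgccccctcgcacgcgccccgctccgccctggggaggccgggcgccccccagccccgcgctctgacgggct
Emilin1, chr5:30913536-30913785, plus strand: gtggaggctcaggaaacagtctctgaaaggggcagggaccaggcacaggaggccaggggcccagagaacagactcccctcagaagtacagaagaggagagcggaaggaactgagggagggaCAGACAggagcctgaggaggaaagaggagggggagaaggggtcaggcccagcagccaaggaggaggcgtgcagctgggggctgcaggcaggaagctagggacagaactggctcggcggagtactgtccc

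The first Fbln5 window holds one composite element, which begins 124 bases before the start, and one SMAD element at 15 bases. The composite element occurs in 3.45% of the 32851 windows of the table and the SMAD element in 17.1%. These shares are per window, and 9 windows were searched for the genes here. The second Fbln5 window holds none of the 4 motifs, and the Emilin1 window holds 1 SMAD element at 129 bases. The Emilin1 window lies inside the gene, whose 5′ end is at 30913387 in the gene table, so it does not precede that end. Among the windows of genes that did not pass the threshold, that of Fbln2, also inside its gene, has no match. Both Fbln1 windows share 1 SMAD element. Of the 2 Ltbp1 windows, 1 has none and the other, inside the gene, has 2 SMAD elements. The window of Fbn1, whose RNA was not analysed, has no match. A match is only a run of letters, and binding was not measured.

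Of the 2 lysyl oxidases, Loxl1 was called lower and Lox was not called; the difference between the genes was not tested. Loxl1 encodes the family member that acts on elastin and binds fibulin 5. Its probe set 1451978_at read 9.22, 9.54, 9.26 and 9.48 in Cebpg-/- samples, against 9.85, 9.72, 10.06 and 10.15 in WT samples. All Cebpg-/- samples lay below all WT samples, and the log2 change was -0.57 (95% interval -0.81 to -0.33; limma adjusted p = 0.0135), or 67.3% of the WT level. Probe set 1436063_at read 5.96, 6.25, 5.82 and 6.18 in Cebpg-/- samples and 6.64, 6.46, 6.80 and 6.89 in WT samples, again without overlap (log2 change -0.65, limma adjusted p = 0.011).

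Lox, the founding member of the family, acts on both collagen and elastin. At 1416121_at it read 11.70, 11.65, 11.66 and 11.71 in Cebpg-/- samples, against 11.61, 11.60, 11.81 and 11.58 in WT samples. The Cebpg-/- values fall inside the WT range. The log2 change was 0.03 with a 95% interval of -0.12 to 0.17 (limma adjusted p = 0.836), an interval that does not reach the change of Loxl1. The other Lox probe sets changed by 0.10 (-0.12 to 0.33) and -0.01 (-0.14 to 0.11).

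**Figure D2:**
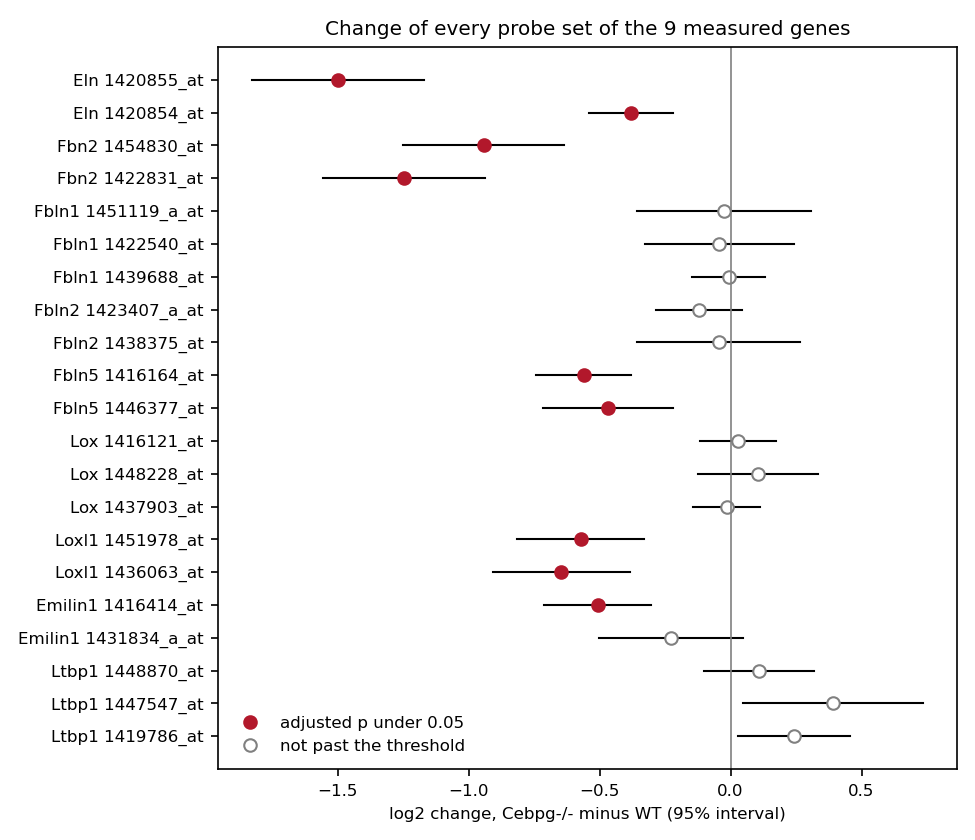
Log2 change, Cebpg-/- minus WT, with its 95% interval from limma for each of the 21 probe sets; filled points passed an adjusted p of 0.05 over all probe sets. Both probe sets of Eln, Fbn2, Fbln5 and Loxl1 and 1 of the 2 of Emilin1 lie left of 0 and passed, and those of Fbln1, Fbln2, Lox and Ltbp1 did not pass.

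Emilin1, a glycoprotein at the interface of elastin and microfibrils, fell at one of its probe sets. Probe set 1416414_at read 6.32, 6.64, 6.28 and 6.42 in Cebpg-/- samples, against 6.88, 6.77, 7.00 and 7.03 in WT samples. The genotypes did not overlap, and the log2 change was -0.51 (95% interval -0.71 to -0.30; limma adjusted p = 0.0107), or 70.4% of the WT level. Probe set 1431834_a_at read 4.84, 5.15, 4.85 and 4.83 in Cebpg-/- samples and 5.07, 4.92, 5.08 and 5.50 in WT samples. These ranges overlap, and its change of -0.23 did not pass (limma adjusted p = 0.303). The difference between both changes was 0.28 log2 units (exact two-sided permutation p = 0.0571, 0.143 adjusted over the 15 pairs). The adjusted value has the limit stated for Eln.

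Ltbp1, which holds latent TGF-beta on microfibrils, went the other way in sign and was not called. Probe set 1448870_at read 9.13, 8.82, 9.15 and 8.97 in Cebpg-/- samples, against 8.84, 8.79, 8.89 and 9.11 in WT samples. The groups overlap, with a log2 change of 0.11 (95% interval -0.10 to 0.32; limma adjusted p = 0.53). Its dimmer probe sets 1447547_at and 1419786_at changed by 0.39 and 0.24 (limma adjusted p = 0.161 and 0.162). WT replicate 4 read 3.40 and 3.05 there, above the other WT samples, and without that array 1419786_at passed at 0.32 (limma adjusted p = 0.0489).

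The genes also varied among samples of one genotype. After subtraction of each genotype's mean, Eln followed Fbln5 with a Pearson r of 0.92 over the 8 arrays and Loxl1 followed Emilin1 with 0.91, while Fbn2 and Loxl1 had -0.22. The 10 pairs among the 5 genes that fell had a median r of 0.51. Fbln1, which was not called, had r from 0.55 to 0.84 with each of the 5. In the brightest probe sets of Eln, Fbn2, Fbln1, Fbln5, Loxl1 and Emilin1, Cebpg-/- replicate 2 was the highest of the 4 Cebpg-/- samples. These correlations describe 8 arrays that share their hybridisation and normalization, and no test was made of them.

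Outside the 9 genes, the genes whose brightest probe sets followed each one most closely over the 8 arrays were taken from 11654 genes at or above the median level. For Eln they were Sars, Ier2 and Npr3 (Pearson r = 0.99, 0.99 and 0.98). For Fbn2 they were Myh10, Tenm3 and Ccn3 (0.98 each). For Fbln5 they were Fkbp9, Sars and Npr3 (0.99, 0.98 and 0.98). For Loxl1 they were Col1a1, Sec31a and Yars, and for Emilin1 Cthrc1, Mical1 and Fap (all 0.99). The r of deviations from the genotype means was between 0.79 (Npr3 with Eln) and 0.98 (Cthrc1 with Emilin1). Their log2 changes ran from -0.28 for Fkbp9 to -1.26 for Npr3; a negative sign follows from choosing genes by r with genes whose genotypes do not overlap.

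Further proteins of elastic fibres and microfibrils gave a mixed picture with more falls than rises. Of 24 listed genes 21 were measured, of which 6 fell and 1 rose, where 3.99% of all genes were called lower and 8.62% higher. Another 14 missed the threshold, and the median log2 change of the list was -0.13. Adamtsl3 and Adamtsl2, secreted ADAMTS-like glycoproteins of the matrix, read 3.64 ± 0.33 and 3.42 ± 0.08 in Cebpg-/- cells, against 4.57 ± 0.21 and 3.83 ± 0.13 in WT cells (SD, n = 4 each; limma adjusted p over genes = 0.00609 and 0.00763). Mfap4, a microfibril-associated protein that binds elastin, fell by 0.61 on the log2 scale (limma adjusted p = 0.0109) and Adamts10, a protease that binds fibrillin, by 0.32 (0.0248). Mfap2, a core component of microfibrils, and Ltbp3, another latent TGF-beta binding protein, complete the falls at -0.62 (limma adjusted p = 0.0268) and -0.29 (0.0423), and these 2 are named after their values were seen. Adamtsl5 rose, with 4.89 ± 0.16 in Cebpg-/- cells and 4.35 ± 0.05 in WT cells (limma adjusted p = 0.00354). Fewer fell, 3 genes, without Cebpg-/- replicate 3 or 4 or WT replicate 1 or 3. Mfap2 and Ltbp3 lost their calls in 6 of the 8 fits that leave out 1 array and Adamts10 in 4, with adjusted p up to 0.119. Ltbp3 also lost its call with array medians subtracted, with the replicate block and as the mean of its probe sets (limma adjusted p = 0.0591, 0.0976 and 0.0558). With the leukocyte marker mean as a covariate the log2 change was -0.32 for Mfap2 and -0.18 for Ltbp3. Adamts10 changed by -0.07 as the mean of its 2 probe sets (limma adjusted p = 0.436).

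Among 11 measured partners of crosslinking 2 fell and 0 rose, where 3.99% of all genes were called lower and 8.62% higher, with a median log2 change of -0.10. Postn (periostin, a matrix protein that aids collagen crosslinking) read 11.15 ± 0.28 in Cebpg-/- cells and 11.79 ± 0.07 in WT cells, and Pcolce (an enhancer of procollagen processing) read 10.58 ± 0.09 in Cebpg-/- cells and 10.90 ± 0.07 in WT cells (SD, n = 4 each; limma adjusted p = 0.00972 and 0.0135). The other lysyl oxidases measured did not pass: Loxl3 changed by 0.05 and Loxl4 by -0.12. Bmp1, which cleaves pro-lysyl oxidase into the active enzyme, had a log2 change of -0.36 (limma adjusted p = 0.0563). Of the copper handling genes that supply the enzyme's cofactor, Atp7a changed by -0.02, Slc31a1 by -0.10 and Atox1 by 0.25, and none passed. Without Cebpg-/- replicate 4, 1 gene of this list was called higher. The same count of 1 came with array medians subtracted, dim probe sets left out, or an intensity trend with robust estimation. The number called lower was 3 after quantile normalization, without dim probe sets, with that trend, and with the replicate block.

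Of 8 elastin-degrading proteases 1 was called, or 12.5%, near the 12.6% of all genes called in either direction, and of 12 receptor genes 3 were called, or 25.0%. The protease, Mmp12 (macrophage elastase), read 6.64, 4.64, 5.59 and 5.92 in Cebpg-/- samples, against 2.49, 2.90, 4.13 and 4.16 in WT samples, a log2 change of 2.27 (limma adjusted p = 0.0128, and 0.0502 with another variance model, an intensity trend with robust estimation). Without Cebpg-/- replicate 2 or WT replicate 4, 2 proteases were called. Among receptor genes Lgals3 (galectin 3, a lectin that binds elastin among other ligands) rose by 1.73, and Neu1 and Ctsa, which form a complex with the elastin-binding protein, by 0.59 and 0.45 on the log2 scale (limma adjusted p = 0.00472, 0.0226 and 0.0198). The integrin subunits Itgav, Itgb1 and Itgb3 changed by 0.0016, -0.01 and -0.02. Without WT replicate 1 or 3, Lgals3 alone of the receptor genes was called, and 1 receptor gene was called lower without WT replicate 2, after quantile normalization and with the other variance model. As the mean of their probe sets Neu1 (0.17) and Ctsa (0.13) did not pass. These genes stand beside leukocyte markers with a mean of 6.41 ± 1.16 in Cebpg-/- cells and 4.90 ± 0.89 in WT cells (SD, n = 4 each). With that marker mean as a covariate the log2 change was 1.24 for Mmp12, 1.11 for Lgals3, 0.35 for Neu1 and 0.27 for Ctsa (limma adjusted p = 0.114, 0.0342, 0.28 and 0.254).

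Of 15 measured genes of TGF-beta signalling, a pathway that stimulates elastin and matrix genes, 3 fell and 1 rose, with a median log2 change of -0.11. Over all genes 3.99% were called lower and 8.62% higher. The ligands Tgfb3 and Tgfb2 fell by 0.66 and 1.04 on the log2 scale and the receptor Tgfbr1 by 0.29 (limma adjusted p = 0.00974, 0.031 and 0.0247). Tgfb2 read 6.13, 6.62, 6.05 and 6.42 in Cebpg-/- samples, against 7.37, 6.54, 7.43 and 8.06 in WT samples, so WT replicate 2 lay inside the Cebpg-/- range. The inhibitor Smad7 rose by 0.21 (limma adjusted p = 0.037). The rest of the list was not called and went both ways. The ligand Tgfb1 changed by -0.22 and the receptors Tgfbr2, Tgfbr3 and Eng by 0.14, 0.75 and -0.16. Smad2, Smad3, Smad4 and Smad6 changed by 0.17, -0.08, -0.19 and 0.00029. For the response genes Ccn2, Skil and Tgfbi the log2 changes were 0.02, -0.11 and -0.42. Signalling itself was not measured. With the replicate block Tgfb2, Tgfbr1 and Smad7 lost their calls (limma adjusted p = 0.0527, 0.0653 and 0.0859), as did Tgfb2 with the other variance model (0.0836) and Smad7 after quantile normalization (0.0766). Without Cebpg-/- replicate 1 or 3 or WT replicate 1 or 3, Tgfb3 alone of the 3 falls was called. The Smad7 call was lost in 7 of the 8 fits that leave out 1 array, with adjusted p up to 0.0996, and the Tgfbr1 change was -0.05 as the mean of its probe sets.

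**Figure D3:**
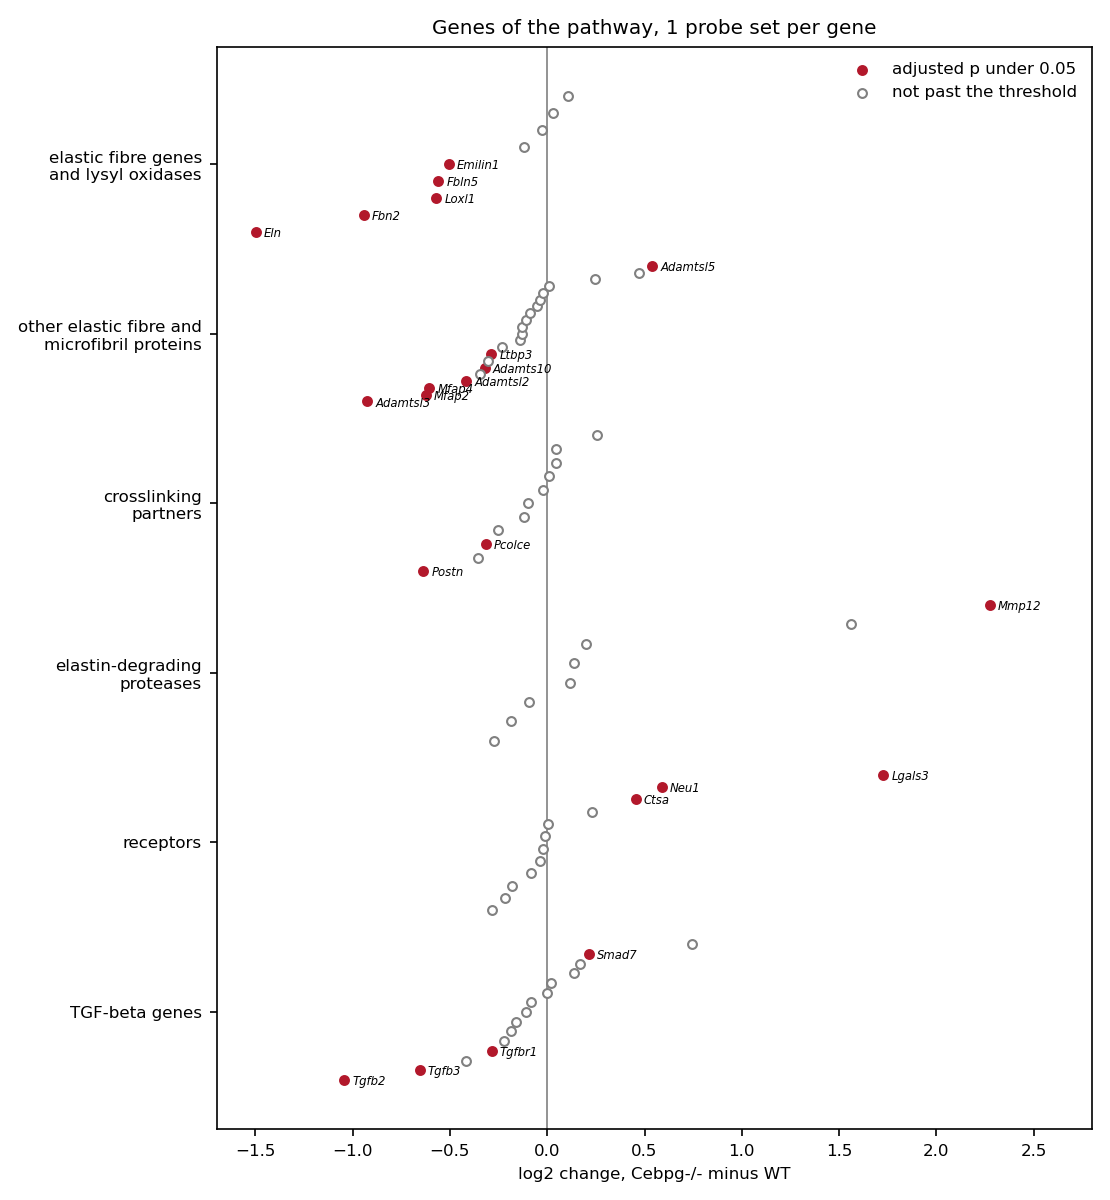
Log2 change, Cebpg-/- minus WT, of the 9 measured elastic fibre genes and lysyl oxidases and of the 5 further gene lists, 1 point per gene from its brightest probe set, spread vertically for legibility. Filled, named points passed an adjusted p of 0.05 over all genes: 5 of 9 in the top row and 7 of 21, 2 of 11, 1 of 8, 3 of 12 and 4 of 15 in the rows under it, where 12.6% of all genes passed in either direction.

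Markers of other cells moved beside these results. The mean of 18 leukocyte and macrophage markers was 7.56, 4.81, 6.84 and 6.42 in Cebpg-/- replicates 1 to 4, against 3.57, 5.32, 5.25 and 5.44 in WT replicates 1 to 4. All 18 had a positive log2 change, and 1 of them (Cd14) was called, where 8.62% of all genes were called higher. Cebpg-/- replicate 2 had a lower marker mean than 3 of the 4 WT samples. Its Eln (4.32), Fbn2 (6.47), Fbln5 (9.94), Loxl1 (9.54) and Emilin1 (6.64) values were below those of every WT sample. They were also the highest of its genotype. With each genotype's mean subtracted, the r of these genes with the marker mean was -0.59, -0.43, -0.61, -0.28 and -0.50. For Fbln1, Fbln2, Lox and Ltbp1 it was -0.57, 0.01, 0.23 and 0.70. These are Pearson correlations of the brightest probe sets over 8 arrays, and they were not tested. With the marker mean as a covariate the 9 called probe sets kept 79.4% to 87.1% of their log2 change. Only Eln 1420855_at (-1.28, limma adjusted p = 0.0119) and Fbn2 1422831_at (-1.06, 0.0217) still passed, and over all probe sets 476 passed in place of 3424. At the gene level Eln passed, Fbln5 and Fbn2 stood at adjusted p = 0.0505 and 0.0517, and Emilin1 and Loxl1 at 0.115 and 0.125. Of the further genes, none of the 6 falls and 1 rise among elastic fibre proteins passed with the covariate, and of the other lists Lgals3 alone did.

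Without both Cebpg-/- replicate 1 and WT replicate 1, the samples with the highest and lowest marker mean, the 9 probe sets kept 86.1% to 98.4% of their change. With 3 samples a genotype Eln, Fbn2 and Fbln5 passed at the gene level and Loxl1 and Emilin1 did not (limma adjusted p = 0.0687 and 0.069). Adamtsl3, Adamtsl2, Mfap4, Adamts10, Mfap2, Ltbp3, Postn and Pcolce also lost their calls, with limma adjusted p from 0.0528 (Adamtsl3) to 0.256 (Ltbp3). So did Mmp12, Neu1, Ctsa, Tgfb2, Tgfb3, Tgfbr1 and Smad7, with limma adjusted p from 0.0712 (Tgfb3) to 0.186 (Tgfb2). Smooth muscle markers, 7 genes, averaged 8.25 ± 0.11 in Cebpg-/- cells and 8.41 ± 0.13 in WT cells, with 0 of 7 called. Markers of endothelium averaged 2.25 ± 0.04 in Cebpg-/- cells and 2.27 ± 0.04 in WT cells, and those of skeletal muscle 1.89 ± 0.03 in Cebpg-/- cells and 1.98 ± 0.10 in WT cells (SD, n = 4 each), all under the array medians. Cartilage markers averaged 4.21 ± 0.55 in Cebpg-/- cells and 3.72 ± 0.18 in WT cells, with 0 of 4 called. Of 6 epithelial markers, at 3.13 ± 0.12 in Cebpg-/- cells and 3.21 ± 0.18 in WT cells, Epcam was called lower. Beside these counts, 3.99% of all genes were called lower and 8.62% higher.

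**Figure D4:**
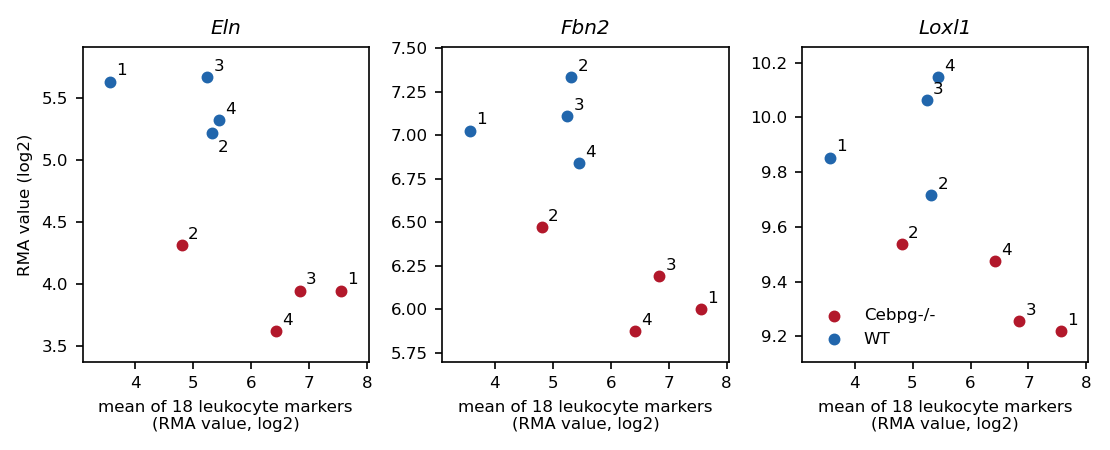
Brightest probe set of Eln, Fbn2 and Loxl1 (RMA value, log2) against the mean of 18 leukocyte markers (RMA value, log2) in the 4 Cebpg-/- (red) and 4 WT (blue) samples, numbered by replicate. Cebpg-/- replicate 2, at a marker mean of 4.81, lies below all WT samples and above the other Cebpg-/- samples in each panel.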

How the data were processed

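Total RNA of 4 Cebpg-/- and 4 WT fibroblast samples was labelled with biotin and hybridised to 1 array each, grouped by the sample titles. The authors deposited log2 RMA values, 1 per probe set and array, per the submitters' processing notes; its version, settings and build were not given in the sources used. RMA corrects background, equalises the arrays' distributions and summarises probes, so a shift of all RNA would not show.

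Of 45101 probe sets 64 controls were left out. The platform annotation names 1 gene for 34945, several for 932 and none for 9160; for 34741 the symbol was renewed from a RefSeq table of GRCm38.p6, matched on the Entrez identifier. The files name no build, so gene coordinates are those of that table. Genotype alone was modelled in limma 3.58.1 under R 4.3.3 (lmFit, then eBayes without trend), with Benjamini-Hochberg adjustment at 0.05. The fit was tested on simulated data for this comparison (45037 probe sets, 200 changed, 10 draws): 77.9% of changes of 0.5 and 98.4% of changes of 1 were called, and 4.76% of calls were false. The simulated noise was normal and independent between probe sets, so it held no variation that probe sets share within a sample. In the data 3424 probe sets were called, and the simulated rates need not hold there.

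The genes and lists were chosen with earlier results of these data known. The genes named are the 10 listed, of each further list up to 4 called genes per direction with the lowest p (all where 5 or fewer), and the 3 genes most like each called one. Loxl3, Loxl4, Bmp1, Atp7a, Slc31a1, Atox1 and 3 integrins were named for their role, after their values were seen. All uncalled genes of the TGF-beta list were named, also after their values were seen. Alternatives were 2 scalings, a filter, another variance model, array weights, a replicate block, a leukocyte covariate, gene means, a 2-fold threshold and leaving out arrays; leaving out 2 arrays together was added after seeing the data. Listed genes that no probe set names alone were left out.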

Additional observations from a re-analysis of the deposited data

Results flagged for a closer look

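In 5 of the 42 groups of 4 values the distance of 1 sample from the nearest other divided by the range of the group exceeded the 95% critical value of Dixon's test; chance gives about 1 in 20. Cebpg-/- replicate 2 read 6.04 at Fbln1 1422540_at, where the other Cebpg-/- samples read 5.44 to 5.51, and 5.15 at Emilin1 1431834_a_at, where the others read 4.83 to 4.85. This sample had the lowest leukocyte marker mean of its genotype, and the part of that in the result was not tested. Lox 1416121_at read 11.81 in WT replicate 3, and 11.58 to 11.61 in the other WT samples. Ltbp1 1447547_at and 1419786_at read 3.40 and 3.05 in WT replicate 4, and 2.95 to 3.01 and 2.74 to 2.77 in the other WT samples.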

How the results depend on the processing

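The 5 genes were called lower under 2 other scalings, the filter, the other variance model, array weights, the replicate block, gene means and each fit without 1 array. Over all features, 3424 probe sets and 2295 genes passed; without 1 array 1477 to 4362 probe sets and 1202 to 2509 genes did, with 8 to 10 probe sets of the 9 genes called (8 to 9 lower). With the replicate block 1911 probe sets and 1469 genes passed, with 8 probe sets and 5 of the 9 genes called. The labels do not say if samples of the same replicate number are paired. Correlations of same-numbered deviations were -0.27, 0.13, -0.01 and 0.03, which are too few to decide it. With the leukocyte covariate 476 probe sets and 361 genes passed, 2 and 1 of them of the 9 genes, all lower. Without both replicates 1 it was 527 and 529, with 2 and 3. With a 2-fold threshold, 254 and 175, with 2 and 1, by construction. The share of called genes that were higher was 68.4%, against 56.7% after quantile normalization and 78.9% with array medians subtracted. Signs turned only for uncalled values. With medians subtracted Fbln1 1451119_a_at, also its gene-level value, was 0.0097, Fbln1 1439688_at 0.0266 and Lox 1437903_at 0.0206. With the covariate Fbln1 1451119_a_at was 0.19, Fbln1 1422540_at 0.14, Lox 1437903_at 0.00059 and Ltbp1 1448870_at -0.0439. Without both replicates 1 Fbln1 1451119_a_at was 0.0152 and Fbln2 1438375_at 0.0275. Without 1 array Fbln1 1451119_a_at ranged from -0.195 to 0.0573, Fbln1 1422540_at from -0.187 to 0.0149, Fbln1 1439688_at from -0.0374 to 0.0344, Fbln2 1438375_at from -0.141 to 0.0819 and Lox 1437903_at from -0.0398 to 0.0049. The cause was not tested. Signal near background limits the dim probe sets.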
